A study of Camellia sinensis with 12 samples.

Results

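Fresh tea leaf was compared with the same kind of leaf after 24 h of withering, the air-drying step that follows plucking in tea making. The comparison used 6 of the 12 libraries of the study, the 3 of 0 h and the 3 of 24 h, and covered every gene of the deposited table. The plant was tea, Camellia sinensis, of the cultivar Longjing43, and the plucked material was the bud and the youngest leaves below it. The 0 h libraries came from unwithered shoots, and the 24 h libraries from shoots withered at 25°C. The labels give a light of 0 lux, whereas the study's methods describe withering in the light. No library of unwithered leaf was made at 24 h, so the effects of water loss and of time since plucking cannot be told apart. The times of 0 h and 24 h nominally share the hour of the day, but clock hours of sampling were not given. Whether the libraries were made from separately plucked leaf is not stated in the sources used here, so p-values describe only how the libraries differed among themselves, a difference that may be technical.

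A plucked tea shoot stays alive during withering. It is cut off from its water supply and loses water through its surface, and dehydrating plant tissue is known to accumulate protective proteins and sugars and to take apart its photosynthetic machinery in a way that resembles leaf senescence. Withering also sets up the aroma and taste of the made tea, because it acts on the enzymes that release volatiles, oxidise phenolics and free amino acids.

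The libraries held 64931031 to 85190458 counts at 0 h and 66920678 to 97055141 at 24 h. Of 52332 genes in the table, 31705 had a count in at least 1 of the 6 libraries. Low values piled up at multiples of 4, which made up 36.3 to 40% of the values from 4 to 19 in each library. A read or read pair may be worth about 4 counts, and the number of independent fragments may be about 4 times smaller than the count. Most low values were not multiples of 4, so a fixed weight of 4 cannot hold for all of them. Log2 CPM of libraries of the same time correlated across genes at 0.9601 to 0.9828, and those of different times at 0.7822 to 0.7916. The first principal component held 84.4% of the variance and separated the 2 times. The second held 6.4% and set replicate 1 of 24 h apart from the other two.

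Levels are given as TMM CPM, the counts of a gene per 1000000 counts of its library after TMM (trimmed mean of M-values) scaling. TMM factors were 1.21 to 1.24 at 0 h and 0.76 to 0.79 at 24 h. Scaling by library size alone moved the median log2 fold change of all genes by -0.67, and the DESeq2 size factors moved it by 0.08. The share of a library's counts taken by a gene, given in percent, does not depend on this scaling. Counts were not divided by gene length, so leading genes and ranks are by counts, to which length contributes, and changes were compared between times. "Rose" and "fell" are used of genes with an adjusted p under 0.05 from edgeR's quasi-likelihood test, changes are log2 fold changes of 24 h against 0 h with their standard error (SE), and levels are means ± SD of 3 libraries.

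Most measured genes differed between fresh and withered leaf. Of 26712 genes tested, 9256 (34.7%) were higher and 10451 (39.1%) were lower at 24 h, together 73.8% of the genes tested. A change of at least 2-fold was passed by 6119 of the higher and 7698 of the lower genes, and one of at least 8-fold by 2068 and 2401. The median log2 fold change of all tested genes was -0.14. Rises made up 47.0% of these calls, and 28.2% where libraries were scaled by their size alone. In bulk leaf, fewer cells of a type and less RNA per cell cannot be told apart.

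Genes of carbon fixation and the photosystems were among those with the most counts in fresh leaf. The gene with the most counts in each 0 h library was a small chain of rubisco, the enzyme that fixes carbon dioxide (MSTRG.12209, CSS017875, Scaffold1839, 653372 to 656360, minus strand). It stood at 8626.5, 15151.3 and 14291.8 TMM CPM in the 3 libraries of 0 h and at 1158.2, 1032.7 and 1040.7 at 24 h. Replicate 1 of 0 h was well below the other two, yet above every 24 h library. The gene fell by 3.56 on the log2 scale (SE 0.24, edgeR adjusted p = 1.68e-08), and its share of all counts went from 1.55% to 0.0829%. Rubisco activase (MSTRG.18095), which keeps rubisco active, had 3272.4, 3390.7 and 3311.1 TMM CPM at 0 h and 189.5, 176.5 and 164.5 at 24 h, a fall of 4.23 (SE 0.08). The groups lay far apart, and its rank among all genes went from 3 to 1431.

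The 15 genes with the highest mean at 0 h held 9 that fell and 5 that rose. Photosystem II subunit R (MSTRG.36763) fell from 2222.3 ± 150.5 to 336.9 ± 21.2 TMM CPM. Light-harvesting complex of photosystem II 5 (MSTRG.12299), an antenna protein that binds chlorophyll, fell from 1584 ± 167.5 to 62.4 ± 19.8, a change of -4.67 (SE 0.20). Falls of the same direction were measured for oxygen-evolving complex 1 (MSTRG.17297, -2.85, SE 0.13) and photosystem II subunit P-1 (MSTRG.9128, -2.17, SE 0.15), both on the water-splitting side of photosystem II. The falls of S-adenosylmethionine synthetase 1 (MSTRG.48280, -0.72, SE 0.07), which makes the plant's main methyl donor, and of a lipoxygenase 2 (MSTRG.2052, -0.56, SE 0.06), an enzyme that oxidises fatty acids, were smaller. An undescribed gene, MSTRG.46377, ranked second at 0 h and twelfth at 24 h, with 2172.1 to 4136.8 and 3975.4 to 4773.6 TMM CPM, and did not pass the test (edgeR adjusted p = 0.187).

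**Figure D1:**
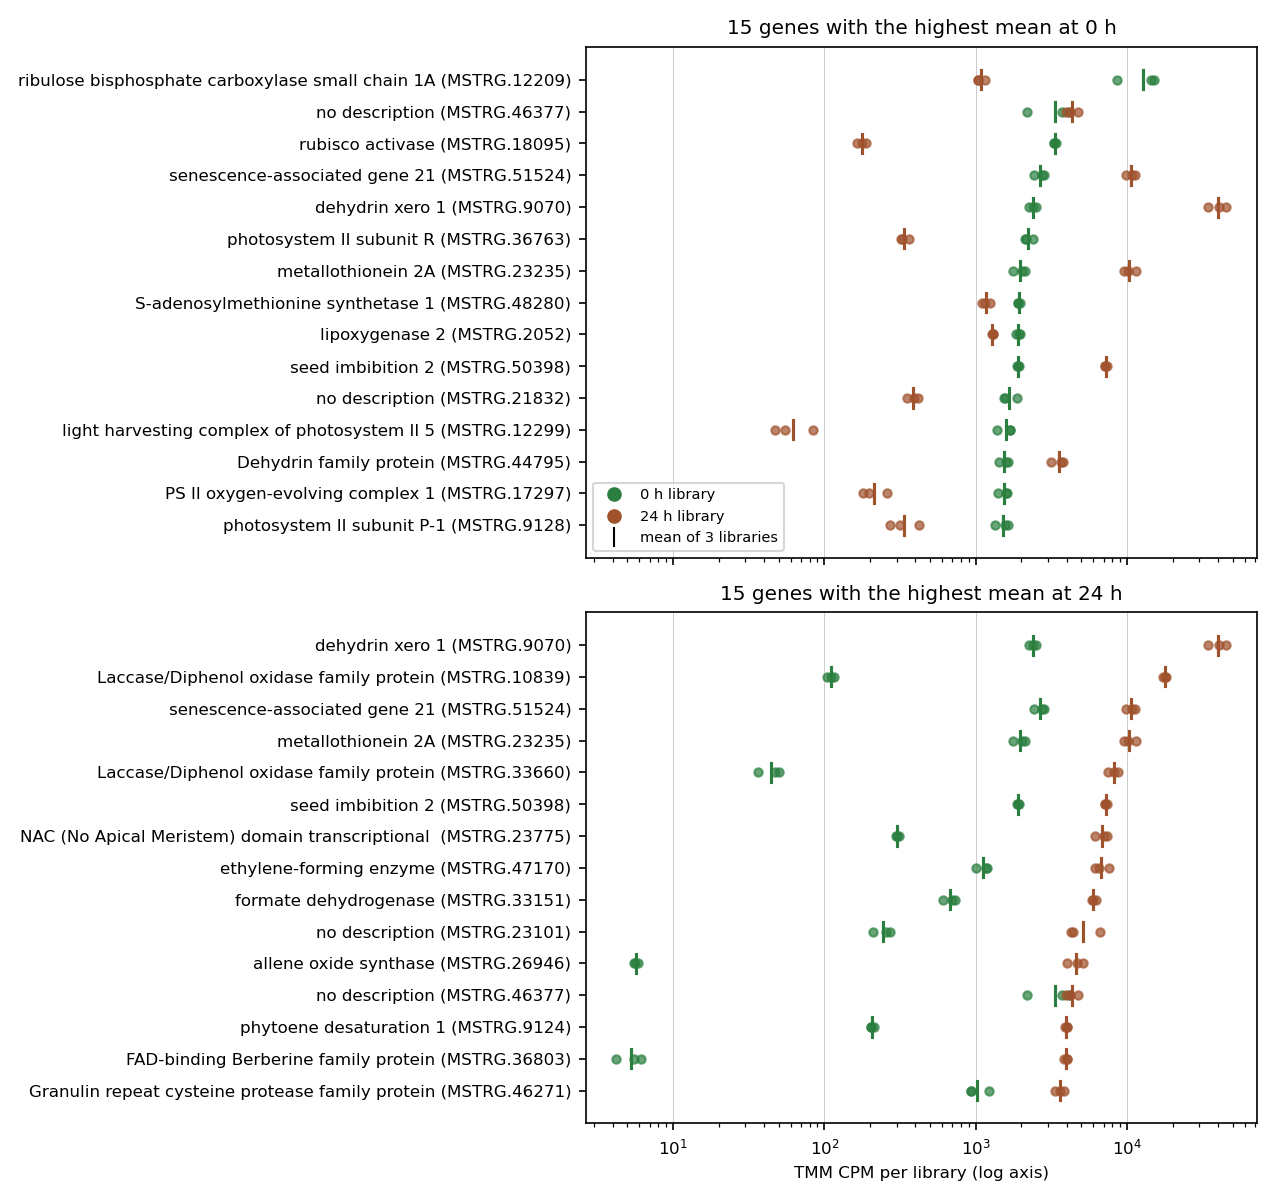
TMM CPM of the 15 genes with the highest mean at 0 h (top) and at 24 h (bottom), on a log axis, with 1 point per library, green for 0 h and brown for 24 h, and a tick at the mean of 3 libraries. Rubisco activase and the photosystem genes lie far to the left at 24 h, while the 24 h points of the dehydrin MSTRG.9070 lie at 34497.2 to 45387.3, far to the right of its 0 h points.

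The genes with the most counts in withered leaf included a dehydrin and 2 laccases. A dehydrin, a hydrophilic protein that accumulates in drying plant cells, had the most counts in each 24 h library (MSTRG.9070, CSS006326, Scaffold1618, 737076 to 738807, minus strand, described as dehydrin xero 1). Its level was 2235.7, 2391.9 and 2515.7 TMM CPM at 0 h and 45387.3, 34497.2 and 40344.6 at 24 h. It was already the fifth gene by mean at 0 h, and it rose by 4.07 (SE 0.12, edgeR adjusted p = 7.92e-12), from 0.291% to 3.08% of all counts. The laccases, copper enzymes that oxidise phenolics and in other plants polymerise lignin, came from far lower ranks. MSTRG.10839 (CSS004051, Scaffold1759, 1081855 to 1087105, minus strand) had 104.2, 111.0 and 116.1 TMM CPM at 0 h and 18095.6, 17354.3 and 17842.0 at 24 h, a rise of 7.33 (SE 0.11) that took it from rank 1388 to rank 2. MSTRG.33660 (CSS012438, Scaffold4241, 133328 to 141445, plus strand) had 36.3, 50.4 and 46.9 at 0 h and 8245.1, 8734.5 and 7435.8 at 24 h, a rise of 7.51 (SE 0.27) from rank 4799 to rank 5. In both genes every 24 h library was above every 0 h library.

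Of the 15 genes with the highest mean at 24 h, 14 rose, the exception being MSTRG.46377. Senescence-associated gene 21 (MSTRG.51524), a late embryogenesis abundant protein in Arabidopsis, rose from 2671 ± 204.3 to 10652 ± 712.5 TMM CPM. Metallothionein 2A (MSTRG.23235), a cysteine-rich metal-binding protein, rose from 1962.4 ± 171.4 to 10370 ± 1013. Seed imbibition 2 (MSTRG.50398), named for an Arabidopsis relative of the raffinose synthases, had 1879.0 to 1927.0 at 0 h and 7158.0 to 7349.1 at 24 h. A NAC transcription factor (MSTRG.23775) rose from 303.0 ± 6.26 to 6830 ± 652.2, a change of 4.49 (SE 0.10). Ethylene-forming enzyme (MSTRG.47170), the oxidase of the last step of ethylene synthesis, rose from 1124 ± 105.0 to 6762.3 ± 756.9. Formate dehydrogenase (MSTRG.33151), a mitochondrial enzyme, rose by 3.15 (SE 0.08).

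Other leading genes of the withered leaf were at lower levels in fresh leaf, some of them under 10 TMM CPM. Allene oxide synthase (MSTRG.26946, CSS013987, Scaffold3359, 639462 to 641033, plus strand), which commits oxidised fatty acids to jasmonate, had 5.64, 5.92 and 5.53 TMM CPM at 0 h and 5153.8, 3999.7 and 4646.0 at 24 h. This was a rise of 9.66 (SE 0.13, edgeR adjusted p = 4.42e-14), from rank 15363 to rank 11. A FAD-binding berberine family gene (MSTRG.36803), of a family of flavin oxidases, had 4.23, 5.51 and 6.18 at 0 h and 3826.3, 3989.9 and 3998.0 at 24 h, a rise of 9.54 (SE 0.15). The gene described as phytoene desaturation 1 (MSTRG.9124), which in Arabidopsis encodes the hydroxyphenylpyruvate dioxygenase of tocopherol and plastoquinone synthesis, rose from 206.7 ± 4.02 to 3961 ± 82.3. A granulin-repeat cysteine protease (MSTRG.46271), of the papain type, rose by 1.81 (SE 0.13).

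The counts were concentrated in fewer genes after withering. In fresh leaf 4.2 ± 0.354% (SD, n = 3) of a library's counts belonged to its 10 most abundant genes, and in withered leaf 9.16 ± 0.357%. The 100 most abundant held 13.6 ± 0.451% and 22.1 ± 0.458%. The number of genes that together held 50% of the counts was 1893, 1867 and 1811 at 0 h and 895, 944 and 887 at 24 h, and 90% was held by 9595.3 ± 54.2 and 6796.3 ± 69.9 genes. In each of these measures the 2 times did not overlap, and the exact permutation test gave p = 0.10 (two-sided), the smallest that 3 against 3 libraries allow.  Of the 100 genes with the highest mean at 0 h, 30 were also among the 100 at 24 h. Each set was chosen for a high mean at its own time, which favours falls in the 0 h set and rises in the 24 h set, so the following values describe the sets and are no test. The 0 h set held 66 genes that fell and 26 that rose, and its joint share of counts went from 13.6% to 11.5%. The 24 h set held 93 that rose and 2 that fell, and its joint share went from 5.86% to 21.9%. The 100 genes of 0 h held 8 antenna genes, 13 genes of the photosystem cores and electron transport and 6 of the Calvin cycle, and the 100 genes of 24 h held 0 of each.

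**Figure D2:**
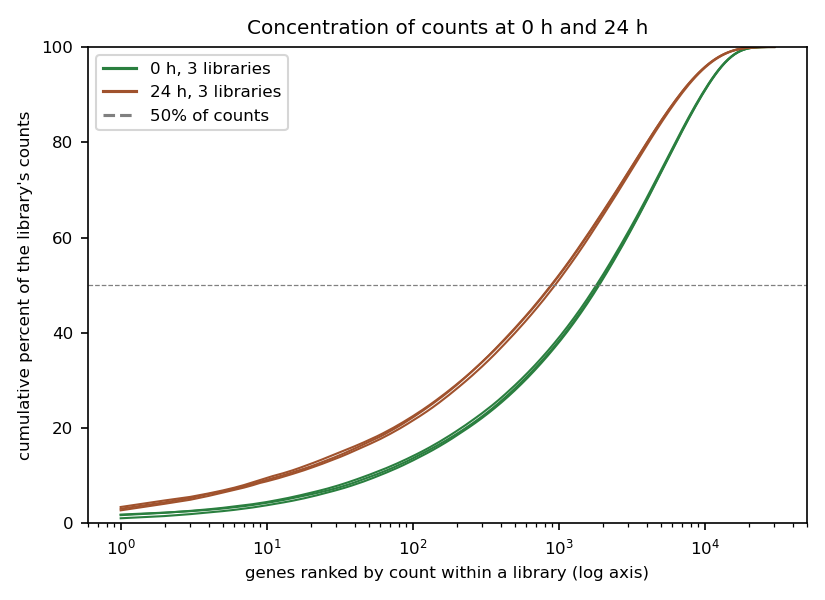
Cumulative percent of a library's counts (vertical axis) against the number of genes ranked by count (log axis), 1 line per library, green for 0 h and brown for 24 h, with a dashed line at 50%. The 24 h lines lie above the 0 h lines and reach 50% at 887 to 944 genes, against 1811 to 1893 at 0 h.

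The largest net gains in TMM CPM were those of the dehydrin MSTRG.9070 (37695.2), the laccase MSTRG.10839 (17653.5), metallothionein 2A (MSTRG.23235, 8407.4), the laccase MSTRG.33660 (8093.9) and senescence-associated gene 21 (MSTRG.51524, 7981.2). The 10 largest gains also held MSTRG.23101, an undescribed gene that rose by 4.37 (SE 0.21) and was higher in replicate 1 of 24 h (6601.7) than in replicates 2 and 3 (4245.9 and 4393.3). Among the 10 largest net losses, rubisco small chain MSTRG.12209 fell by 11612.7 TMM CPM and rubisco activase (MSTRG.18095) fell by 3147.9. The others included 2 antenna genes of photosystem I. Photosystem I light-harvesting complex gene 2 (MSTRG.41752) fell from 1324.6, 1519.4 and 1469.6 to 120.3, 70.9 and 82.8 TMM CPM, and gene 3 (MSTRG.46438) fell from 935.1, 1162.9 and 1172.5 to 58.1, 33.8 and 34.1. A gene described as a chloroplastic drought-induced stress protein of 32 kD (MSTRG.5998), a thioredoxin-like protein in potato, went against its name and fell by 3.28 (SE 0.13), with 1110.5 to 1245.3 at 0 h and 102.0 to 141.4 at 24 h.

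A set of genes was near zero in one state and present in the other. With a limit of under 1 TMM CPM in each library of one time and at least 10 in each library of the other, 179 genes were switched on at 24 h and 104 were switched off. Of the genes switched on, 11 had 0 counts in all 0 h libraries, and of those switched off, 3 had 0 counts in all 24 h libraries. These counts depend on the limit: with under 0.5 TMM CPM they were 104 and 33, and with CPM of the library size alone 117 and 204. Osmotin 34 (MSTRG.24252, CSS044314, Scaffold2987, 926132 to 926812, plus strand), an antifungal protein of the thaumatin family that is induced by osmotic stress in other plants, reached the highest level of the genes switched on. It had 0.390, 0.452 and 0.765 TMM CPM at 0 h and 1728.9, 1217.0 and 1485.8 at 24 h, a rise of 11.44 (SE 0.27). A gene of unknown function with a DUF584 domain (MSTRG.2986) followed with 0.306 to 0.395 and 505.9 to 628.3. A rhamnogalacturonate lyase (MSTRG.6459), which cuts pectin, had 0.125 to 0.281 and 218.6 to 260.3. Myb domain protein 108 (MSTRG.17092), a transcription factor tied to senescence and jasmonate in Arabidopsis, had 0.963 to 0.969 and 145.7 to 181.2. Of 26712 genes tested 179 were switched on, and by list these held 14 of 232 cytochrome P450 genes, 6 of 128 AP2/ERF factors, 5 of 107 pathogenesis-related genes and 5 of 140 genes of cuticle, wax and lipid transfer. Auxin (of 159), phenylpropanoid (of 87), receptor-like kinase (of 849) and ligase genes (of 765) held 4 each. These lists are named by their number of genes, not by their share. Lists with fewer included WRKY (of 79), MYB (of 146), expansin and xyloglucan (of 81) and amino acid and peptide transporter genes (of 119) with 3 each. Dehydrins and LEA proteins (of 37) held 2.

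For genes with 0 counts in a state, a fold change is a bound against 12 counts in each library. Cytochrome P450 71A24 (MSTRG.24006) had 0 counts in the 3 libraries of 0 h and 43.7, 36.4 and 43.7 TMM CPM at 24 h, at least 305-fold higher. Cytochrome P450 87A2 (MSTRG.51609) had 0 counts at 0 h and 24.6 to 32.6 TMM CPM at 24 h, at least 213-fold higher. A tyrosine transaminase (MSTRG.14615) was at least 181-fold higher, a calcium-binding EF-hand protein (MSTRG.35271) at least 143-fold, glutamate receptor 2.7 (MSTRG.12855) at least 105-fold and a late embryogenesis abundant protein (MSTRG.39334) at least 90.5-fold. Methyl esterase 3 (MSTRG.44303), whose Arabidopsis relatives release hormones from their methyl esters, had a count in only 1 library of 0 h and 53.5 to 73.5 TMM CPM at 24 h. Calcium-dependent protein kinase 24 (MSTRG.28672) was uneven among the withered leaves, with 139.1, 19.7 and 143.6, all far above the 0.0193 to 0.0255 of fresh leaf.

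Among the largest falls, an ankyrin repeat protein (MSTRG.39246) had 21.3, 25.9 and 21.4 TMM CPM at 0 h and 0 counts at 24 h, at least 119-fold lower. MLP-like protein 28 (MSTRG.4931) was at least 77.5-fold lower and an aspartyl protease (MSTRG.48946) at least 76.3-fold lower. Several genes of high level in fresh leaf fell to near 1 TMM CPM. A sodium/calcium exchanger with EF-hand domains (MSTRG.35474) fell from 202.6, 229.0 and 220.2 to 1.20, 1.58 and 0.728, a change of -7.55 (SE 0.23). An FKBP-type isomerase (MSTRG.42545), of a family of protein-folding enzymes, fell from 250.5 to 270.4 down to 1.52 to 1.75, a change of -7.31 (SE 0.15). A gene with a DUF247 domain (MSTRG.32063) fell from 278.7 to 294.2 down to 0.807 to 2.91, a change of -7.33 that was -7.94 without replicate 1 of 24 h. Homeobox protein 6 (MSTRG.27156, CSS045619, Scaffold3382, 1132275 to 1135690, minus strand), a leucine-zipper factor that in Arabidopsis responds to water deficit, fell from 801.2 ± 27.8 to 5.82 ± 0.968, a change of -7.10 (SE 0.14). Among the genes switched off, an invertase or pectin methylesterase inhibitor (MSTRG.16742) fell from 82.6 ± 1.54 to 0.604 ± 0.0684, a terpene synthase of the 1,8-cineole type (MSTRG.24732) from 47.0 ± 6.41 to 0.448 ± 0.176, and a phosphoglucomutase (MSTRG.46344) from 45.6 to 49.7 down to 0.791 to 0.897.

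**Figure D3:**
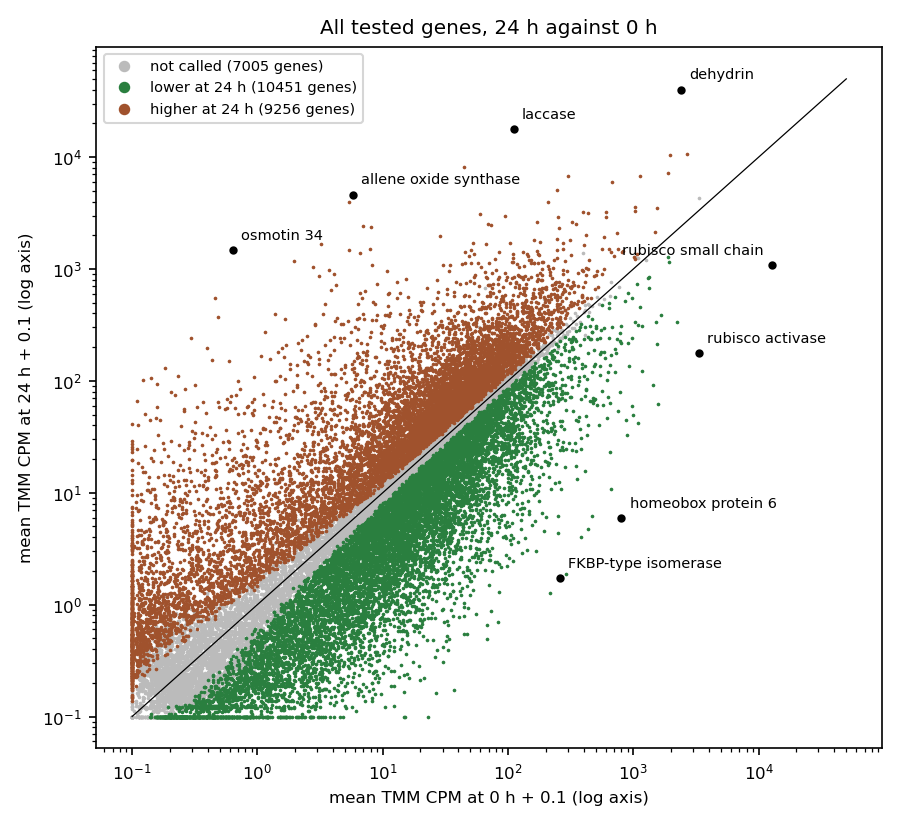
Mean TMM CPM at 24 h against that at 0 h for all 26712 tested genes, 0.1 added for the log axes, 1 point per gene, brown for the 9256 higher genes, green for the 10451 lower genes and grey for genes not called, with the line of equal levels. The dehydrin, laccase, allene oxide synthase and osmotin 34 lie far above the line, and rubisco small chain, rubisco activase, homeobox protein 6 and the FKBP-type isomerase far below it.

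The change was then read by gene lists, each matched on words of the gene descriptions. Of 64 lists with tested members, 30 held more higher than lower genes and 31 more lower than higher. These shares are to be read against 34.7% higher and 39.1% lower among all tested genes, and list medians against -0.14. Scaling by library size alone moves every gene by about the same -0.67, so that a list whose median lies a little above 0 turns by construction, while its place relative to all genes stays. The split of 30 and 31 lists therefore depends on the scaling, and which scaling is nearer to the true levels was not tested. The counts or the median of 23 lists turned in this way, which is given beside those described and is a limit of the scale rather than a result about the lists. The others were histones (31 higher and 27 lower of 76, against 16 and 43), glutathione S-transferases (40 and 24 of 90, against 25 and 37), heat shock factors (11 and 4 of 21, against 8 and 7, where only the median turned, from 0.65 to -0.02), lipases and fatty acid desaturases (40 and 33 of 94, against 29 and 51), sugar transporters (14 and 12 of 30, against 9 and 14), amino acid and peptide transporters (51 and 46 of 119, against 39 and 59) and ethylene genes (6 and 6 of 16, against 5 and 8).

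**Figure D4:**
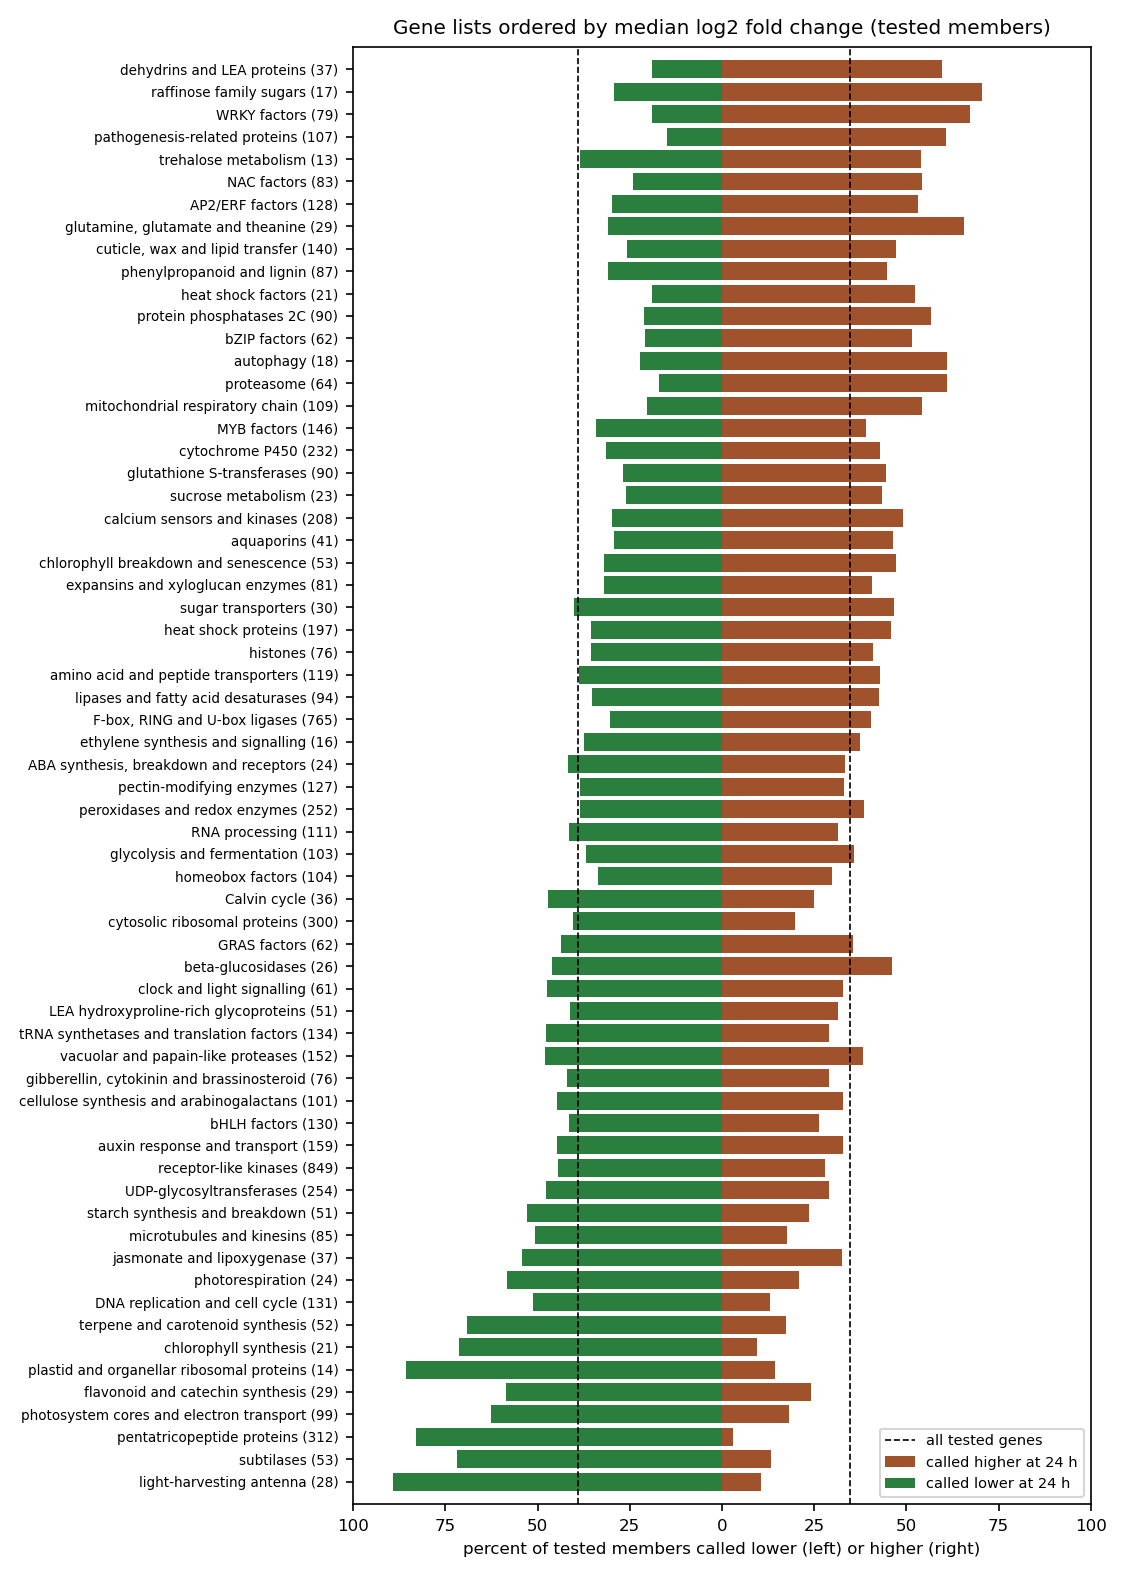
Percent of tested members called higher (brown, right) and lower (green, left) at 24 h for 64 gene lists ordered by median log2 fold change, with the number tested in brackets and dashed lines at the shares of all tested genes (34.7% and 39.1%). Dehydrins, raffinose sugars and WRKY factors lie at the top, and antenna, subtilase and pentatricopeptide genes at the bottom.

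Most genes of the antenna and the photosystems fell. Of 28 antenna genes tested, 25 were lower and 3 higher, with a median of -3.43, and their summed share of counts went from 1.14% to 0.0743%. An antenna subunit of photosystem I (MSTRG.44696) fell by 6.53 (SE 0.19), from 430.7 ± 37.1 to 4.64 ± 1.12 TMM CPM, and MSTRG.24347, of a chlorophyll A/B binding protein, changed by -5.93 (SE 0.19). A member of the chlorophyll A-B binding family (MSTRG.15094) went the other way, from 90.8 ± 11.6 to 169.7 ± 4.44. Of 99 genes of the photosystem cores and electron transport, 62 were lower and 18 higher, with a median of -1.87. Photosystem II subunit O-2 (MSTRG.8250), a protein of the water-splitting complex, fell from 379.9 ± 3.01 to 3.91 ± 1.95. Among the genes that rose were copies of photosystem II reaction center protein E, a protein encoded in the chloroplast genome, such as MSTRG.49109 with 6.15 ± 0.350 and 31.7 ± 10.9. Of 36 Calvin cycle genes, 17 were lower and 9 higher, with a median of -0.20 that is close to the -0.14 of all genes. Their summed share went from 2.65% to 0.229%, of which rubisco small chain MSTRG.12209 and rubisco activase (MSTRG.18095) held 1.55% and 0.407% at 0 h. Glyceraldehyde 3-phosphate dehydrogenase A (MSTRG.22107) fell by 4.31 (SE 0.15), while another copy of the rubisco small chain (MSTRG.35818) rose from 0.0807 ± 0.0702 to 14.4 ± 1.19, a rise of 7.54 that was 6.88 without replicate 2 of 0 h. How reads shared by near-identical copies were assigned is not given in the sources used here, so values of single copies of a family are uncertain. Of 24 photorespiration genes, 14 were lower and 5 higher.

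Genes of organelle gene expression and of chlorophyll synthesis were mostly lower. Of 312 pentatricopeptide genes, whose proteins edit and process RNA in chloroplasts and mitochondria, 259 were lower and 9 higher, with a median of -2.11. MSTRG.28465 fell from 117.1 ± 8.71 to 6.40 ± 1.32, and the exception MSTRG.17964 rose from 69.9 ± 5.24 to 1123 ± 29.0. Of 14 plastid and organellar ribosomal protein genes, 12 were lower and 2 higher. Of 21 genes of chlorophyll synthesis, 15 were lower and 2 higher. Protochlorophyllide oxidoreductase A (MSTRG.28067), which needs light to act, fell from 61.9 ± 3.01 to 2.48 ± 1.35, whereas a glutamyl-tRNA reductase (MSTRG.1314), the first enzyme of the pathway, rose from 41.2 ± 2.61 to 740.9 ± 48.3. In the list of chlorophyll breakdown and senescence, 25 of 53 genes were higher and 17 lower, but 21 and 22 with the library size alone. Non-yellowing 1 (MSTRG.18747), the magnesium dechelatase that starts chlorophyll breakdown, rose from 20.2 ± 0.930 to 206.4 ± 14.3. Chosen after their values were seen, a pheophorbide a oxygenase (MSTRG.12476), which opens the chlorophyll ring, rose by 2.32 and a chlorophyllase 2 (MSTRG.45425) fell by 1.36 on the log2 scale.

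Dehydrin, LEA and raffinose genes were mostly higher. Of 37 genes of dehydrins and late embryogenesis abundant (LEA) proteins, 22 were higher and 7 lower, with a median of 2.04, or 1.5 with genes at 0 counts set to their bound. Their summed level went from 5260.6 to 5868.4 TMM CPM per library at 0 h to between 39395.7 and 51038.5 at 24 h, and most of this sum was the single gene MSTRG.9070, with a mean of 40076.3 at 24 h. LEA group 6 (MSTRG.46050) rose from 13.4 ± 0.379 to 236.0 ± 4.84, and a LEA family gene (MSTRG.36202) from 0.185 ± 0.0838 to 26.7 ± 6.60. The ERD4 gene (MSTRG.41444), named for early response to dehydration in Arabidopsis, fell from 549.2 ± 5.55 to 181.2 ± 12.5. The LEA hydroxyproline-rich glycoproteins, a family that shares the name but is tied to defence, had 16 higher and 21 lower of 51. Of 17 genes of raffinose family sugars, which protect membranes in dry tissue, 12 were higher and 5 lower, with a median of 1.77. Genes of galactinol synthase, the first enzyme of that pathway, moved in opposite directions. Galactinol synthase 2 (MSTRG.42832) had 2.76, 3.24 and 1.98 TMM CPM at 0 h and 1112.4, 968.8 and 1018.8 at 24 h. Galactinol synthase 4 (MSTRG.25287) had 430.0, 478.9 and 481.1 at 0 h and 6.73, 5.82 and 5.70 at 24 h. A raffinose synthase (MSTRG.45981) rose from 396.8 ± 19.9 to 3246 ± 26.7. A gene described as seed imbibition 2 (MSTRG.43558) fell from 20.4 ± 2.29 to 0.575 ± 0.285, unlike MSTRG.50398 of the same description, which rose. Of 13 trehalose genes, 7 were higher and 5 lower, and 6 and 6 with the library size alone. Of 197 heat shock and chaperone genes, 90 were higher and 70 lower, which turned to 51 and 98 with the library size alone. A DnaJ chaperone (MSTRG.34454) rose by 3.30 (SE 0.16), and heat shock protein 21 (MSTRG.8425), a chloroplast chaperone in Arabidopsis, fell from 49.2 ± 2.91 to 1.53 ± 0.506.

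Of 51 starch genes, 27 were lower and 12 higher. Beta-amylase 1, which releases maltose from starch, rose in both named copies, from 104.3 ± 5.08 to 1704 ± 129.2 (MSTRG.6545) and from 246.1 ± 5.70 to 1463 ± 34.6 (MSTRG.4333). Beta-amylase 6 (MSTRG.38775) fell from 25.0 to 28.7 down to 0 counts in 2 libraries and 0.190 in the other, and ADP glucose pyrophosphorylase 1 (MSTRG.6013), an enzyme of starch synthesis, fell by 3.84 (SE 0.14). Sucrose synthase 3 (MSTRG.16291) rose from 253.8 ± 3.41 to 2312 ± 40.1 and an alkaline/neutral invertase (MSTRG.17095), which splits sucrose, from 174.8 ± 8.87 to 1352 ± 85.5. The list of sucrose genes held 10 higher and 6 lower of 23, and 6 and 10 with the library size alone. Phosphoenolpyruvate carboxykinase 1 (MSTRG.1503), which feeds sugar synthesis from organic acids, rose from 109.8 ± 4.95 to 1373 ± 51.1.

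Of 107 genes of pathogenesis-related proteins, 65 were higher and 16 lower, with a median of 1.31, and their summed share went from 0.257% to 1.27%. A basic chitinase (MSTRG.50154), which cuts fungal cell walls, had 7.15, 6.18 and 7.31 TMM CPM at 0 h and 2965.7, 1890.4 and 2373.4 at 24 h. A second osmotin 34 gene (MSTRG.47680) had 1.56 to 1.98 at 0 h and 665.2, 2092.6 and 796.5 at 24 h, so that replicate 2 was well above the other two while the groups did not overlap. Its rise of 9.33 was 8.62 without that library. Of 79 WRKY factors, regulators of defence and senescence, 53 were higher and 15 lower. A WRKY75 gene (MSTRG.51664) had 3.12, 2.77 and 3.05 at 0 h and 542.0, 979.6 and 1052.1 at 24 h, whereas the 3 largest falls among WRKY genes of at least 10 TMM CPM were all of WRKY70, led by MSTRG.5422 with 135.7 ± 11.7 and 3.82 ± 1.64.

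Genes of the jasmonate and lipoxygenase routes were lower in number and higher in sum. Of 37 tested, 20 were lower and 12 higher, with a median of -0.79, while the summed level went from 5495.3 to 6074.8 TMM CPM at 0 h to between 13082.1 and 14624.7 at 24 h. The members that rose included allene oxide synthase MSTRG.26946, lipoxygenase 1 (MSTRG.6150), which rose from 72.7 ± 1.85 to 2489 ± 134.2, and 12-oxophytodienoate reductase 2 (MSTRG.48190), which rose from 27.1 ± 1.63 to 794.9 ± 66.3. Lipoxygenase 2 genes fell, with MSTRG.13379 from 288.2 ± 12.5 to 24.3 ± 4.28 and MSTRG.13416 from 215.7 ± 18.1 to 21.9 ± 3.77. Hydroperoxide lyase 1 (MSTRG.18187), the enzyme of green leaf volatiles, chosen after its value was seen, fell from 488.6 to 186.9 in the mean. In ethylene synthesis, a second ethylene-forming enzyme gene (MSTRG.29381) rose from 12.8 ± 1.34 to 756.9 ± 140.3. ACC synthase 1 (MSTRG.42609), of the rate-limiting step, rose from 0.303 ± 0.0649 to 12.8 ± 0.464. A gene described as 1-amino-cyclopropane-1-carboxylate synthase 2 (MSTRG.31344), by name of the same step, was chosen after its value was seen. It had at most 0.125 TMM CPM at 0 h and 96.6 to 117.0 at 24 h, a rise of 11.06 (SE 0.43). Both synthase genes were switched on, but the ethylene list counted 1 gene switched on. The list, with 6 higher and 6 lower of 16, therefore left out at least 1 of them.

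Genes of abscisic acid (ABA), the hormone of water deficit, were called in shares near those of all tested genes. Of 24 genes of its synthesis, breakdown and receptors, 8 were higher (33.3%) and 10 lower (41.7%), with a median of 0.10. The shares of all tested genes were 34.7% and 39.1%. The DESeq2 size factors gave 9 and 8, and the library size alone 5 and 11 with a median of -0.56. The synthesis enzyme nine-cis-epoxycarotenoid dioxygenase 3 (MSTRG.26007) rose from 167.7 ± 1.45 to 504.7 ± 58.8, the carotenoid-cleaving dioxygenase 4 (MSTRG.1853) fell from 55.7 ± 3.61 to 3.11 ± 1.12, and the breakdown enzyme ABA hydroxylase, the subfamily A cytochrome P450 (MSTRG.35125) rose from 33.9 ± 3.04 to 141.8 ± 25.7. Of 90 protein phosphatases 2C, a family that holds the brakes on ABA signalling, 51 were higher and 19 lower, and 36 and 34 with the library size alone. Highly ABA-induced PP2C gene 3 (MSTRG.40750) rose by 4.05 (SE 0.16). Of 208 calcium sensors and kinases, 102 were higher and 62 lower, which turned to 70 and 95 with the library size alone.

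The routes to tea phenolics diverged. Of 29 genes of flavonoid and catechin synthesis, 17 were lower and 7 higher, with a median of -1.73. Flavanone 3-hydroxylase (MSTRG.27966), on the way to catechins, fell from 91.0, 105.3 and 103.7 to 18.2, 15.3 and 14.5, and flavonol synthase 1 (MSTRG.43497) fell by 2.53 (SE 0.18), while a chalcone synthase family gene (MSTRG.14841) rose from 55.3 ± 0.847 to 207.5 ± 15.0. Of 87 phenylpropanoid and lignin genes, 39 were higher and 27 lower, 34 and 33 with the library size alone, and their share of counts went from 0.291% to 2.37%, most of it the 2 laccases. Laccase 7 (MSTRG.4918) rose from 0.573 ± 0.174 to 74.7 ± 7.04, and cinnamyl alcohol dehydrogenase 9 (MSTRG.18199) fell by 5.80 (SE 0.56, and -7.64 without replicate 1 of 24 h). Phenylalanine ammonia-lyase, the entry enzyme, chosen after its values were seen, rose in 2 copies (MSTRG.8319, 2.15, and MSTRG.36667, 2.81) and fell in 1 (MSTRG.3604, -1.41).

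Genes of terpene and carotenoid synthesis, the source of floral aroma, were mostly lower, 36 of 52 against 9 higher, with a median of -1.15. Terpene synthase 14 (MSTRG.7429) fell from 38.3 ± 8.02 to 1.05 ± 0.213. Of 26712 genes tested 104 were switched off, and these held 4 of the 52 genes of this list. They also held 4 of 254 UDP-glycosyltransferases, 3 of 53 subtilases and 3 of 130 bHLH factors. Deoxyxylulose-5-phosphate synthase (MSTRG.10461), which feeds the plastid terpene route, rose from 99.1 ± 6.76 to 306.1 ± 23.6. The summed share of the list went from 0.348% to 0.436%, of which MSTRG.9124, listed for its description only, held 0.305% at 24 h. Beta-glucosidases, some of which release aroma compounds from their sugar conjugates in tea, were 12 higher and 12 lower of 26. The genes that rose included beta glucosidase 46 (MSTRG.23773, 5.64, SE 0.20) and those that fell a copy of beta glucosidase 17 (MSTRG.35333, -5.37, SE 0.27). No gene matched the list of caffeine synthesis.

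Genes of nitrogen metabolism, to which theanine belongs, moved both ways. Of 29 genes of glutamine, glutamate and theanine, 19 were higher and 9 lower, and 13 and 11 with the library size alone. Glutamine-dependent asparagine synthase 1 (MSTRG.21058), which in Arabidopsis makes a transport form of nitrogen in dark or senescing leaves, rose from 4.56 ± 0.200 to 220.9 ± 3.66. Glutamate dehydrogenase 2 (MSTRG.49935) rose by 4.52 (SE 0.16) and glutamate decarboxylase 4 (MSTRG.9975), which makes gamma-aminobutyric acid, from 16.0 ± 1.68 to 106.7 ± 7.18. The chloroplast glutamine synthetase 2 (MSTRG.46808) fell from 385.2 ± 8.85 to 30.7 ± 4.06. Glutamate synthase 1 (MSTRG.7022) fell from 90.8, 59.6 and 60.6 to 0.381, 4.99 and 1.80, a change of -4.92 (SE 0.61) that was -6.05 without replicate 2 of 24 h. An amino acid transporter (MSTRG.273) rose from 8.28 ± 1.51 to 504.7 ± 29.3, and nitrate transporter 1.5 (MSTRG.2631) from at most 0.115 to between 91.5 and 97.5, a rise of 10.77 that ranged from 10.09 to 11.73 with 1 library of 0 h left out.

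The 2 genes described as pyridoxine biosynthesis 2, which the study tied to the hydrolysis of theanine, changed little beside these. The study relied on co-expression over all times of withering, promoter assays and RT-qPCR of a later batch of shoots. Only 0 h and 24 h are compared here. MSTRG.33795 (CSS034324), named CsPDX2.1 by the study, had 110.8, 114.6 and 116.4 TMM CPM at 0 h and 135.2, 161.9 and 153.5 at 24 h, a rise of 0.40 (SE 0.11, edgeR adjusted p = 0.00454). The groups did not overlap, but the share of all counts was 0.0139% at 0 h and 0.0116% at 24 h, and scaling by library size alone turned the change to -0.27. MSTRG.9423 had 1.06 to 1.17 at 0 h and 1.25 to 2.30 at 24 h, a change of 0.76 (SE 0.27) that did not pass the test without replicate 1 of 0 h (0.71), replicate 1 of 24 h (0.63) or replicate 2 of 24 h (0.60), with the 6 libraries alone (0.76) or with the library size alone (0.10). The 6 transcription factors the study named were matched by their CSS identifiers. CsWRKY40 (MSTRG.6798) had 3.38, 5.08 and 3.37 at 0 h and 4.01, 2.0 and 3.26 at 24 h, and its change of -0.35 passed the test only with replicate 1 of 24 h left out (-0.59) or with the library size alone (-1.02). CsB3 (MSTRG.24832), with 30.6 to 42.3 and 30.5 to 36.4, likewise passed it only without replicate 2 of 0 h (-0.26) or with the library size alone (-0.81). CsbHLH (MSTRG.8952) rose from 2.59 to 3.24 up to 4.62 to 6.44, and CsbZIP (MSTRG.22195) from 61.9 to 67.6 up to 76.9 to 81.0. With the library size alone the change of CsbHLH missed the threshold (0.32) and that of CsbZIP turned to -0.38. CsGRAS (MSTRG.35117) fell by 1.28 (SE 0.08). CsZF (MSTRG.49989) fell by 0.35 (SE 0.12), from 46.4 to 61.9 down to 36.3 to 45.0, and missed the threshold without replicate 3 of 0 h (-0.20) or replicate 1 of 24 h (-0.28), with DESeq2 or its size factors (-0.27 each) or with the 6 libraries alone (-0.34).

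Of 64 proteasome genes, 39 were higher and 11 lower, but 15 and 25 with the library size alone, and their share of counts was 0.379% and 0.381%. Of 18 autophagy genes, 11 were higher and 4 lower (7 and 7 with the library size alone), with ATG18G (MSTRG.8465) at 89.1 ± 3.79 and 527.9 ± 38.7 and autophagy 9 (MSTRG.20812) at 35.3 ± 2.18 and 167.5 ± 0.935. Of 152 vacuolar and papain-like proteases, 58 were higher and 73 lower, led upwards by an aspartyl protease (MSTRG.20946) at 8.94 ± 0.373 and 391.4 ± 31.5. Subtilases, secreted serine proteases of the cell wall, were 38 lower and 7 higher of 53, with a median of -2.29 (-2.04 with genes at 0 counts at their bound). Of 765 F-box, RING and U-box ligases, 308 were higher and 232 lower, which turned to 200 and 383 with the library size alone. Plant U-box 24 (MSTRG.812) rose from 0.333 ± 0.137 to 152.1 ± 14.2.

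Of 300 cytosolic ribosomal protein genes, 121 were lower, 59 higher and 120 not called, with a median of -0.22 against -0.14 for all genes (13 higher and 228 lower with the library size alone), and their share of counts went from 3.10% to 1.81%. Of 134 tRNA synthetases and translation factors, 64 were lower and 39 higher. Of 109 genes of the mitochondrial respiratory chain, 59 were higher and 22 lower, which turned to 22 and 36 with the library size alone. The alternative oxidases, which let respiration bypass energy capture, rose under each scaling, with alternative oxidase 1A (MSTRG.1857) going from 74.2 ± 6.57 to 916.8 ± 76.3 and alternative oxidase 2 (MSTRG.37058) from 5.05 ± 0.620 to 74.9 ± 11.6.

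Of 131 genes of DNA replication and the cell cycle, 67 were lower and 17 higher, and the 3 largest rises among those of at least 10 TMM CPM without overlap were all of inhibitors of cyclin-dependent kinases, such as MSTRG.25979 (9.38 ± 0.184 and 33.1 ± 5.65). Cyclin D5;1 (MSTRG.22273) fell from 22.5 ± 2.27 to 0.378 ± 0.139. Of 85 genes of microtubules and kinesins, 43 were lower and 15 higher. In the cell wall, the expansin-like B1 gene MSTRG.15582 rose from 0.0835 ± 0.0412 to 131.5 ± 29.0, and expansin A1 (MSTRG.48743), a wall-loosening protein of growing cells, fell from 108.7 ± 6.85 to 8.70 ± 1.03. The list of expansins and xyloglucan enzymes held 33 higher and 26 lower of 81, and 30 and 31 with the library size alone. Of 76 genes of gibberellin, cytokinin and brassinosteroid, 32 were lower and 22 higher, and brassinosteroid-6-oxidase 1 (MSTRG.28524), which makes active brassinosteroid, fell from 30.1 ± 2.06 to 0.321 ± 0.247, a change of -6.55 that was -7.42 without replicate 3 of 24 h. Of 159 auxin genes, 71 were lower and 52 higher.

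Among other transcription factors, NAC factors were 45 higher and 20 lower of 83, with NAC 100 (MSTRG.37309) at 1.73 ± 0.777 and 142.7 ± 5.48, and AP2/ERF factors 68 higher and 38 lower of 128 (55 and 50 with the library size alone). Of 62 bZIP factors, 32 were higher and 13 lower, which turned to 17 and 27 with the library size alone, and bZIP 53 (MSTRG.44006), which in Arabidopsis acts in the response to low energy, rose from 6.47 ± 1.09 to 1399 ± 208.1. Of 146 MYB factors, 57 were higher and 50 lower (47 and 64 with the library size alone), with MYB63 (MSTRG.26277), a regulator of lignin genes in Arabidopsis, at 1.48 ± 0.240 and 197.8 ± 17.5. Of 130 bHLH factors, 54 were lower and 34 higher. C-repeat-binding factor 4 (MSTRG.35406), a factor of the drought response in Arabidopsis, fell from 53.5 ± 3.04 to 1.72 ± 0.347. Of 61 genes of the clock and of light signalling, 29 were lower and 20 higher, and the part of light in these changes was not tested. Pseudo-response regulator 5 (MSTRG.5400), a clock protein, rose from 6.92 to 9.23 up to 103.1 to 110.6.

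Water channels and surface lipids changed by member. Of 41 aquaporins, 19 were higher and 12 lower, which turned to 14 and 19 with the library size alone. Plasma membrane intrinsic protein 1;4 (MSTRG.41746) rose from 107.0 ± 6.96 to 821.8 ± 73.5, and tonoplast intrinsic protein 1;3 (MSTRG.1483), a channel of the vacuole, fell from 788.5 ± 50.7 to 265.2 ± 14.3. Of 140 genes of cuticle, wax and lipid transfer, 66 were higher and 36 lower, and 53 and 54 with the library size alone. GDSL lipase 1 (MSTRG.12578) fell from 950.3 to 1004.5 down to 56.3 to 62.2. Among the fatty acid desaturases, desaturase 2 (MSTRG.12859) rose from 1.83 ± 0.221 to 81.4 ± 5.45 and desaturase 8 (MSTRG.48433), a chloroplast enzyme in Arabidopsis, fell from 238.8 ± 3.48 to 12.1 ± 2.16. Of 232 cytochrome P450 genes, 99 were higher and 73 lower (73 and 98 with the library size alone), of 254 UDP-glycosyltransferases 74 were higher and 121 lower, and of 849 receptor-like kinases 237 were higher and 378 lower. Peroxidase 2 (MSTRG.20813) was uneven at 24 h, with 401.9, 767.7 and 2220.4 TMM CPM against 27.4 to 76.4 at 0 h, and its rise of 4.29 (SE 0.64) was 3.33 without replicate 3.

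**Figure D5:**
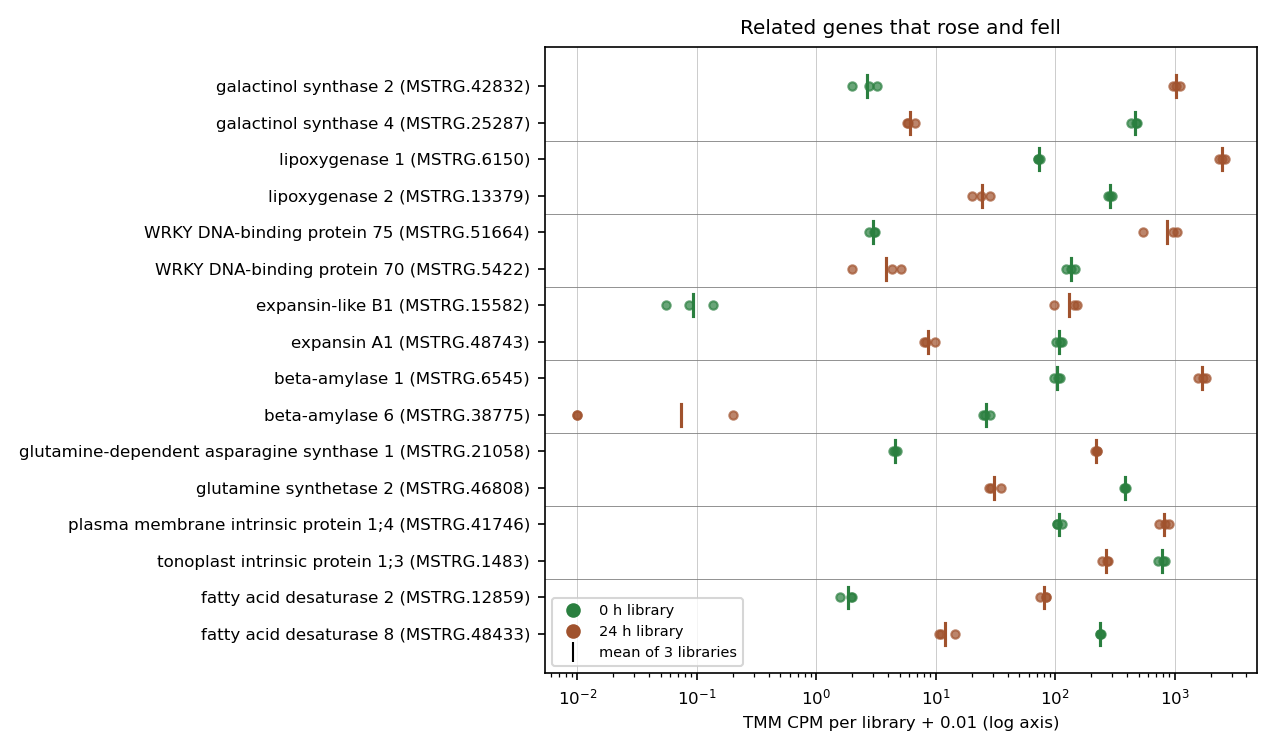
TMM CPM (0.01 added, log axis) of 8 pairs of genes of related function, 1 member that rose and 1 that fell in each, paired after their values were seen, with 1 point per library (green 0 h, brown 24 h) and a tick at the mean. Galactinol synthase 2 and 4 exchange places, at 1.98 to 3.24 and 430.0 to 481.1 at 0 h and at 968.8 to 1112.4 and 5.70 to 6.73 at 24 h.

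Marker genes were used to check the tissue and other cell types. Their counts are to be read against 34.7% higher and 39.1% lower among all tested genes. The photosynthesis genes that mark leaf were the leading genes at 0 h and at lower levels at 24 h, as given above. Markers of dividing cells of the bud were 10 lower (38.5%, near the share of all genes) and 6 higher of 26. Their summed level was 132.7 to 139.0 TMM CPM per library at 0 h and 90.6 to 99.6 at 24 h. Markers of epidermis and cuticle were 17 higher and 4 lower of 26 (727.8 to 785.1 and 1771.8 to 2081.3), those of guard cells 3 higher and 6 lower of 9 (150.3 to 172.0 and 91.0 to 109.7), and those of vascular tissue 21 higher and 15 lower of 44, 17 and 22 with the library size alone (1233.6 to 1394.3 and 1831.7 to 2130.0). Markers of flower organs were 22 higher and 25 lower of 68, 15 and 33 with the library size alone (866.0 to 912.1 and 776.5 to 888.9). Transcripts named for the plastid and mitochondrial genomes were 23 higher and 7 lower of 46, 11 and 12 with the library size alone, with a sum of 288.0 to 328.4 at 0 h and 472.7 to 773.9 at 24 h. The part of cell composition in the changes above was not tested.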

How the data were processed

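RNA was sequenced from 12 libraries of tea shoots, 3 at each of 4 times of withering, and the 6 of 0 h and 24 h are compared here. Per the submitters' processing notes, the tools were HISAT2 2.0.5, StringTie 1.3.1, FastQC 0.10.1 and Trimmomatic. The deposited values are estimated counts per gene, whole numbers that the authors did not normalize. How reads became counts, on which build and with which strand setting, is not given in the sources used here. No identifier matched the reference table, so gene names are the descriptions in the authors' files.

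Counts were tested in edgeR 4.0.16 (R 4.3.3) with TMM scaling, filterByExpr and the quasi-likelihood test on all 12 libraries with time as factor. P-values were adjusted by Benjamini-Hochberg over all 26712 genes tested, and the threshold was 0.05. All 12 libraries shared 1 estimate of the spread. The SE is the log2 fold change divided by the square root of F. Groups with 0 counts were set to a floor of 12 counts per library, on the assumption of 3 fragments of 4 counts. The script was tested on simulated counts in which only a small part of the genes changed. That test does not cover a change of most genes, as was measured here. Gene lists were matched on words of the descriptions, and 18 patterns were corrected because they caught other genes.

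Named genes were the 15 with the highest mean at each time, the 10 largest net gains and losses, the 12 largest rises and falls, the 3 largest rises and falls per list, the 6 leading genes switched on or off and 8 genes named by the study. For rises and falls, a description, a mean of at least 10 TMM CPM in the higher state and no overlap between the groups were asked. Members and lists were chosen with earlier results of these data known. Alternatives were DESeq2 1.42.0, its size factors, library size alone, other filters, 6 libraries only, the replicate block and leaving out each replicate. Chosen after seeing the data were counts divided by 4 and the list patterns before correction.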

Additional observations from a re-analysis of the deposited data

How the results depend on the processing

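The count of higher genes was 9256, and 5814 with the library size alone or 6119 with a fold of at least 2. Under the other settings it lay between 8333 and 9996, and between 8850 and 9121 with 1 library left out. The count of lower genes was 9916 to 10579 with 1 library left out and 14809 with the library size alone. The replicate numbers did not pair the libraries (correlations of deviations -0.079, -0.034 and 0.013), and the replicate block gave 9079 higher and 10314 lower genes. The share of counts in the 10 leading genes was 9.99% at 24 h among genes with a CSS identifier or a description, and with 100 genes in place of 10 it was 13.6% at 0 h and 22.1% at 24 h. Among the same described genes 50% of the counts were held by 1668.7 genes at 0 h and 819.7 at 24 h. Genes switched on numbered 117 and genes switched off 204 with CPM of the library size alone, and 104 and 33 with a limit of 0.5 CPM. The cause of these shifts was not tested.

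Of 64 list medians, taken minus that of all genes, 3 reversed in at least 1 setting. In 58 lists at least 1 setting moved the median without reversing it. Over all settings 316 values moved in this way and 700 stayed the same. The ABA list stood at 0.24, at -0.02 with DESeq2 and -0.11 with no filter, and at -0.15 to 0.34 with 1 library left out (negative without replicate 1 of 0 h or replicate 3 of 24 h). The list of cellulose synthesis and arabinogalactans stood at -0.25, at 0.0 with DESeq2, -0.05 with no filter and -0.77 with a filter of 1 CPM in 3 libraries. With 1 library left out it stood at -0.42 to 0.03 (positive without replicate 2 of 0 h). Peroxidases and redox enzymes stood at 0.06, at -0.02 with no filter and at -0.03 to 0.11 (negative without replicate 1 of 0 h or of 24 h). Of 144 named genes, 3 reversed, with the library size alone: MSTRG.22195 (-0.38), MSTRG.33795 (-0.27) and MSTRG.46377 (-0.30). No other gene of the 144 changed direction, and the calls that changed side were of the genes named by the study.

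Depth limits statements on genes near zero, since 12 counts per library correspond to 0.135 TMM CPM at 0 h and 0.193 at 24 h. With counts divided by 4, 8851 genes were higher and 10025 lower.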

Other observations

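Of 3690 tested genes with no usable description, 33.8% were higher and 34.1% lower, against 34.8% and 39.9% of described genes, and their share of counts went from 7.63% to 8.73%. MSTRG.3087 had 53.7, 60.4 and 64.7 TMM CPM at 0 h and 4005.5, 2199.6 and 2999.3 at 24 h, which placed it at rank 21 of the withered leaf. MSTRG.45304 had 27.5 to 29.3 at 0 h and 1806.7 to 2116.0 at 24 h, a rise of 6.09 (SE 0.12). In the other direction MSTRG.21832, the eleventh gene of the fresh leaf, fell from 1528.4, 1573.0 and 1872.3 to 418.3, 352.3 and 393.0. MSTRG.3087 and MSTRG.45304 were chosen after their values were seen, from the undescribed genes with the most counts at either time.

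Genes described as parts of transposable elements were 62 higher (24.2%), 75 lower (29.3%) and 119 not called of 256, against 34.7% and 39.1% of all tested genes. Spread between libraries was larger in withered leaf, with a median SD of log2 CPM over tested genes of 0.121 at 0 h and 0.194 at 24 h.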
